A study of Mus musculus with 11 samples.

Results

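The genes described here are 8 regulators of protein phosphatase 1 (PP1): Phactr1, Phactr2, Phactr3, Ppp1r16b, Ppp1r1a, Ppp1r9a, Ppp1r9b and Ppp1r21. They were picked by name out of 14864 genes in the deposited expression table, with their difference between the genotypes already known, and all 8 were among the 13184 genes that passed the filter on low values. For that reason their values by genotype, and how many of them were past a threshold in the fit over all genes, are given as a description that supports nothing, while their differences by sex, which did not choose them, were tested. The libraries were made from total RNA of hypothalamus from mice aged 60 to 70 postnatal days. The labels give 5 libraries as wild type (WT; 2 female, 3 male) and 6 as Het (3 female, 3 male), and the title of the study names loss of MYT1L, a neuronal DNA-binding protein with zinc fingers. The sources used here do not give the mutated allele. RNA was taken with a Zymo kit and amplified with the SMARTer Ultra Low RNA kit.

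PP1 is a serine/threonine phosphatase with a small catalytic subunit. Regulatory subunits bind it, carry it to a place in the cell, choose its substrates or block its active site. In neurons such partners place PP1 at the actin of dendritic spines, where it opposes kinases that act on receptors and ion channels, and some of them are best known from the medium spiny neurons of the striatum.

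Values are CPM, here corrected counts times a factor for each library, recovered from the deposited log2 values. Differences are on the scale of log2(CPM + 0.5), as Het minus WT or female minus male. The corrected counts summed to 22921048 to 24941704 per library. In CPM, 1 count was worth 0.04174 to 0.04225, a factor that did not follow these totals. The upper quartile of the deposited log2 values was 5.473 in every library. How deep the libraries were before correction is unknown. Over all genes tested, 453 of 13184 (3.44%) passed a Benjamini-Hochberg adjusted p of 0.05 in limma for Het against WT, 303 (2.3%) higher and 150 (1.14%) lower. Centring each library on its median made that split 233 higher and 243 lower, and quantile normalization made it 362 and 102. Libraries labelled WT had 76.3 ± 15.9 CPM of Myt1l (SD, n = 5), and libraries labelled Het had 76.3 ± 26.9 CPM (SD, n = 6). The lowest of the 11 values, 51.1 CPM, was in the library labelled WT replicate 11, and the highest, 130 CPM, in the library labelled Het replicate 9. Both go against their labels, so differences are also given without these libraries. WT replicates 4, 6, 3 and 7 had 70.5, 83.5, 89.3 and 87.2 CPM of Myt1l. The Het libraries other than replicate 9 had 58.7 to 75.9 CPM, which overlaps these WT values. Identifiers in the sample descriptions carry the prefixes 14111, 14308 and 14309. All 4 libraries of prefix 14308 were male, and WT replicate 11 and Het replicate 9 were the males of prefix 14309. Prefix 14308 had 2 WT and 2 Het libraries, and prefix 14309 had 2 WT and 4 Het libraries. Differences within a prefix are between plain means, not adjusted for sex. Within 14309 they include WT replicate 11 and Het replicate 9.

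The start regions of the genes that were higher in every library labelled Het are given for reference. RefSeq promoters on GRCm38.p6, running from 250 bases before to 50 after a start site, were found for 6 of the 8 genes, 10 promoters in all. The letters AAGTT, the core bound by the MYT1 family, and their reverse AACTT were searched on both strands. They were found in 2 of the 10 promoters, against 12918 of 32851 (39.3%) of all promoters in the table. The sequences given are those of the first and the last of the 3 listed Phactr1 starts, a start of Ppp1r16b and a start of Ppp1r9a, all on the plus strand. Capitals mark the searched letters.
Phactr1, chr13:42680549-42680848: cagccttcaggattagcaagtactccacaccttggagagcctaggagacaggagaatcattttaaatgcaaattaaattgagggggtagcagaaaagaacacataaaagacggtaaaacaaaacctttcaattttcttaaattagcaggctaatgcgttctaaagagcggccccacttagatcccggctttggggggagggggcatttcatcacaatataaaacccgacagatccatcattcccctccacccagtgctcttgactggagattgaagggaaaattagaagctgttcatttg
Phactr1, chr13:43122589-43122888: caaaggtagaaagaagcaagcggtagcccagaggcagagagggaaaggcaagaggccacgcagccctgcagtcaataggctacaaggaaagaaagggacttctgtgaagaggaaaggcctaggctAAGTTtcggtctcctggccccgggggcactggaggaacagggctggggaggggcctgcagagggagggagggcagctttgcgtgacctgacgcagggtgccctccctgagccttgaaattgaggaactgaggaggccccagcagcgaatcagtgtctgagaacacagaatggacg
Ppp1r16b, chr2:158666483-158666782: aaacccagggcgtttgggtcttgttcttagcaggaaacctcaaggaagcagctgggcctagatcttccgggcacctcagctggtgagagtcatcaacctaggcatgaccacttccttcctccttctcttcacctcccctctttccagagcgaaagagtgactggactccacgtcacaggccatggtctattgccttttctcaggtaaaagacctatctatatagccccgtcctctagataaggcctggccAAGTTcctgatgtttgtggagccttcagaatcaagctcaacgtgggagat
Ppp1r9a, chr6:4903061-4903360: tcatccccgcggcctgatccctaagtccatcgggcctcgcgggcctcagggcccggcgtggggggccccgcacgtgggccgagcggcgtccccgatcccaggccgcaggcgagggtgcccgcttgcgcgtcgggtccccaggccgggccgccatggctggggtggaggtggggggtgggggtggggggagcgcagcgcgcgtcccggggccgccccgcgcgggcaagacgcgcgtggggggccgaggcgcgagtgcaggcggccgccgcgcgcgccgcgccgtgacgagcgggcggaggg
The upstream Phactr1 promoter had a GC content of 43.7% and no match. The downstream Phactr1 promoter had a GC content of 59% and 1 match, and the Ppp1r16b promoter given had 51.7% and 1 match. The Ppp1r9a promoter given had a GC content of 82% and a CpG ratio, observed over expected, of 0.97. The medians of all promoters were 52.7% and 0.38. The listed starts of a gene differed among themselves. A second listed promoter of Ppp1r9a had a GC content of 63.7% and a CpG ratio of 0.33, and a second of Ppp1r16b had a GC content of 60.7% and no match. The middle Phactr1 promoter had a GC content of 44% and no match. Whether these starts were used in the hypothalamus was not measured by these counts per gene.

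Per kilobase of annotated exon, Ppp1r1a was the most abundant of the 8 regulators in the libraries labelled WT, at 57.1 ± 6.17 CPM per kilobase (SD, n = 5). Ppp1r1a encodes inhibitor-1, a small protein that blocks PP1 once protein kinase A has phosphorylated it. Phactr3 followed at 21.3 ± 3.94 and Phactr1 at 18.4 ± 1.87, and the ranges of these neighbours overlapped. Ppp1r16b stood at 14.1 ± 1.28, Ppp1r21 at 9.43 ± 1.93 and Ppp1r9b at 9.23 ± 1.59, and the ranges of the last pair overlapped. The lowest levels per kilobase were 3.49 ± 0.225 for Ppp1r9a and 1.27 ± 0.235 for Phactr2. In the libraries labelled Het the order of Phactr1 and Phactr3 was turned, with Phactr1 at 27.1 ± 4.99 and Phactr3 at 15.4 ± 2.13 CPM per kilobase (SD, n = 6). Ppp1r16b, at 19.2 ± 3.52, lay between them and overlapped both.

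**Figure D1:**
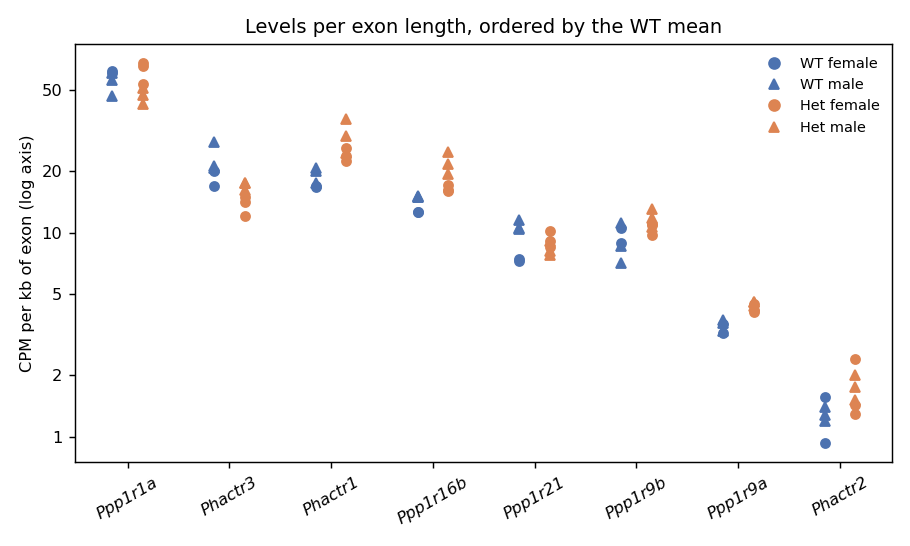
Level of each regulator in CPM per kilobase of exon (log axis), with 1 point per library, circles for females and triangles for males. Ppp1r1a is highest and Phactr2 lowest in both genotypes, and Phactr1 and Phactr3 change places between them.

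Phactr1, Phactr2 and Phactr3 belong to the family of phosphatase and actin regulators. Each binds PP1 at its C-terminal end and monomeric actin through RPEL repeats, and these partners compete on it. Phactr1 (ENSMUSG00000054728, mm10 chromosome 13, 42680623 to 43138526, plus strand) was at 163, 161, 169, 193 and 200 CPM in WT replicates 4, 6, 3, 7 and 11. In the libraries labelled Het it ran from 217 through a median of 243 to 346 CPM. Every Het library was above every WT library, and both the highest WT value and the highest Het value came from the libraries whose Myt1l went against their labels. The difference was 0.56 on the log2 scale, 1.47 times in mean CPM (177 ± 18 against 260 ± 47.9), and 0.51 without those libraries. It was 0.51 in females and 0.61 in males, 0.52 within prefix 14308 and 0.51 within prefix 14309.

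Phactr2 (ENSMUSG00000062866, chromosome 10, 13207717 to 13474412, minus strand), the member of the family with the lowest level, was at 18.2, 10.9, 13.9, 16.3 and 15 CPM in WT. The Het libraries ran from 15.1 through 19.1 to 28.1 CPM. The groups overlapped, with a difference of 0.43 that was 0.33 within prefix 14308, 0.64 within prefix 14309 and 0.39 without the libraries in doubt.

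Phactr3 (ENSMUSG00000027525, chromosome 2, 178118975 to 178338492, plus strand), also known as scapinin, went the other way. It was at 108, 129, 133, 177 and 136 CPM in WT and ran from 77.8 through 99.5 to 113 CPM in Het. The Het values lay low in the joint range, and 4 of the 6 were below every WT value. The difference was -0.43, or 0.723 times in mean CPM (136 ± 25.2 against 98.7 ± 13.7). It was -0.43 in females, in males and without the 2 libraries in doubt alike. The ratio of Phactr1 to Phactr3 CPM within a library was 1.51, 1.25, 1.27, 1.09 and 1.47 in WT and from 2.09 to 3.34 in Het. Its lack of overlap follows from the opposite differences of these paralogs already given, and is no further result.

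**Figure D2:**
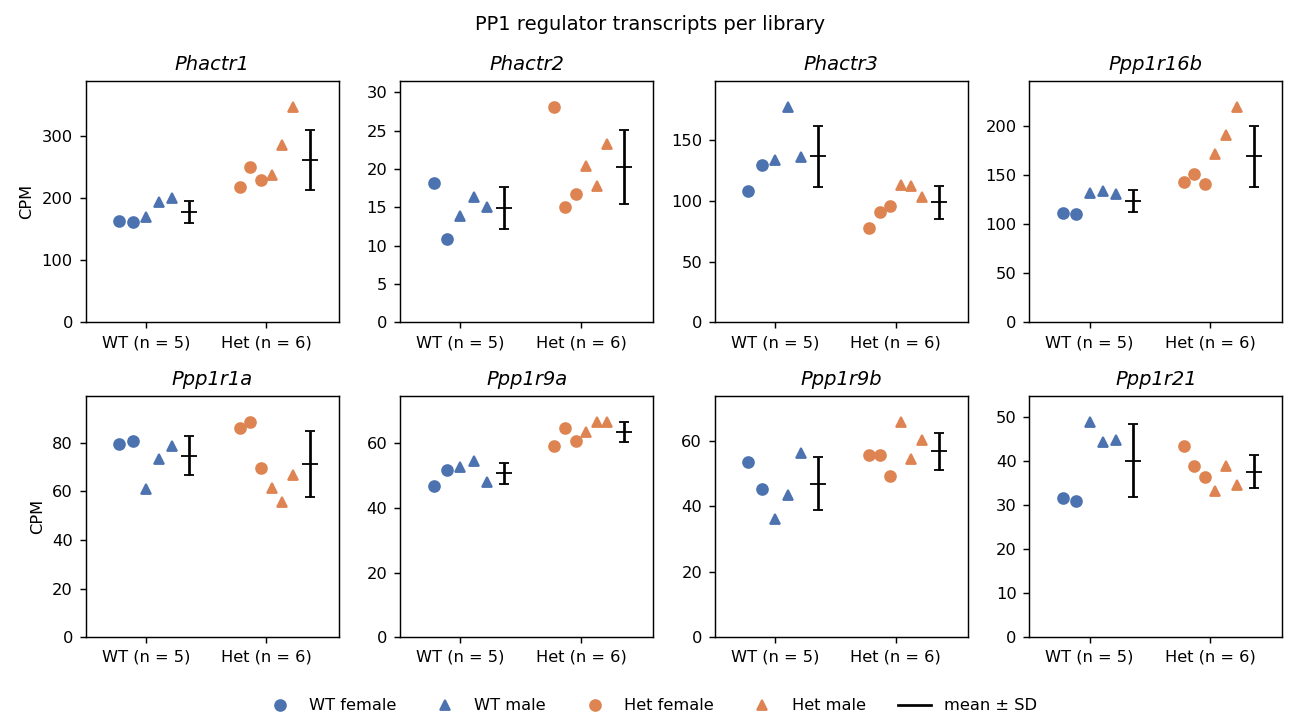
CPM of each of the 8 regulators in each of the 11 libraries, WT and Het side by side, with circles for females, triangles for males and the group mean ± SD as a bar. Each panel has its own axis from 0. Het and WT do not overlap for Phactr1, Ppp1r16b and Ppp1r9a, and they overlap for the other 5.

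Ppp1r16b (ENSMUSG00000037754, chromosome 2, 158665398 to 158766334, plus strand) encodes TIMAP, a membrane-anchored PP1 subunit with ankyrin repeats that is best known from endothelial cells. It was at 112, 111, 132, 134 and 131 CPM in WT and ran from 141 through 161 to 220 CPM in Het. Every Het library was above every WT library. The difference was 0.47, or 1.37 times in mean CPM (124 ± 11.3 against 170 ± 31.2), and 0.40 without the libraries in doubt. None of 5 endothelial markers passed for Het against WT, with a median difference of 0.044. Their summed level was 44.5 to 75.2 CPM in WT and 44.2 to 74.5 in Het.

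Ppp1r9a and Ppp1r9b encode neurabin and spinophilin, related scaffolds that bind actin filaments and hold PP1 in dendritic spines. Ppp1r9a (ENSMUSG00000032827, chromosome 6, 4902917 to 5165661, plus strand) was at 46.6, 51.8, 52.5, 54.4 and 47.9 CPM in WT. In Het it ran from 59.2 through 64 to 66.6 CPM. The groups did not overlap, and the spread within each was small, with means of 50.7 ± 3.27 and 63.5 ± 3.05 CPM and a difference of 0.33. That difference lay between 0.28 and 0.34 in either sex, within either prefix and without the libraries in doubt.

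Ppp1r9b (ENSMUSG00000038976, chromosome 11, 94991035 to 95006899, plus strand) was at 53.6, 45.2, 36.1, 43.6 and 56.2 CPM in WT and ran from 49.4 through 55.7 to 65.9 CPM in Het. The groups overlapped, and the difference of 0.29 was 0.12 in females and 0.42 in males. By prefix it was 0.59 within 14308 and 0.13 within 14309, and without the libraries in doubt it was 0.33.

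Ppp1r1a (ENSMUSG00000022490, chromosome 15, 103530279 to 103538003, minus strand) was at 79.4, 80.5, 61.1, 73.1 and 78.7 CPM in WT and ran from 55.4 through 68 to 88.6 CPM in Het. The Het range enclosed the WT range, and the difference was -0.11, or -0.08 without the libraries in doubt. It was 0.02 in females and -0.21 in males. Ppp1r21 (ENSMUSG00000034709, chromosome 17, 88530118 to 88588367, plus strand) encodes a subunit of the FERRY complex, which ties messenger RNAs to early endosomes. It was at 31.7, 30.9, 48.9, 44.2 and 44.8 CPM in WT and ran from 33.2 through 37.6 to 43.5 CPM in Het. Here the WT range enclosed the Het range, with a difference of -0.06 that was 0.33 in females and -0.37 in males. Without the libraries in doubt its sign turned, at 0.01.

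In the fit over all genes 4 of the 8 regulators were past the adjusted threshold, Phactr1, Ppp1r16b and Ppp1r9a as higher and Phactr3 as lower, beside 3.44% of all genes tested. The groups did not overlap for 3, all higher, beside 3.35% of all genes (2.02% higher and 1.33% lower). The choice of the genes used this contrast, so these counts are a description of it. The median difference of the 8 was 0.31 and that of all genes -0.016. No exon of the 8 overlapped another annotated gene.

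Markers of striatal neurons also tended to be higher in Het, though their sums overlapped between the genotypes. The marker lists were chosen with earlier results of these data known, so their counts are a description. Of 16 striatal markers 8 rose in Het and 0 fell, beside 2.3% and 1.14% of all genes, with a median difference of 0.51. All 16 differences were positive, beside 6201 of the 13184 genes tested. The summed striatal level was 1928 to 2446 CPM in WT and 2203 to 3986 in Het, and the highest sum was in Het replicate 9. Het replicates 5 and 7, at 2203 and 2267 CPM, were below WT replicates 7 and 11, at 2331 and 2446 CPM. Penk and Tac1, at means of 1125 and 496 CPM in WT, made up most of the sum. Neither passed (limma adjusted p = 0.117 and 0.674). Of 12 hypothalamic peptide and transcription factor markers 0 rose and 5 fell, with a median of -0.29 and sums of 3265 to 4224 CPM in WT and 2272 to 3605 in Het. No marker of either list was at 0 in any library. Of 8 cortical and hippocampal markers tested 1 (Wipf3) rose, with a median of 0.094. The sums over all 10 listed were 233 to 334 CPM in WT and 249 to 350 in Het. Nrgn, at a mean of 224 CPM in WT, made up most of them. Of 6 thalamic markers 1 rose, and none of 5 astrocyte, 5 oligodendrocyte or 5 microglial markers passed. The part of the striatal and hypothalamic marker levels in the regulators' differences between genotypes was not tested. In pieces of tissue, fewer cells of a type and less RNA per cell cannot be told apart.

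The genes most like Phactr1 across the 11 libraries were Bcl11b, Meis2, Ppp1r16b, Pde10a and Tacc1. Likeness was the root mean square of the difference in log2 level, each gene centred on its own mean, over 12893 genes. It was 0.0924 for Bcl11b and 0.0939 for Meis2, both transcription factors of striatal projection neurons, and 0.101 for Ppp1r16b. Pde10a, the phosphodiesterase of medium spiny neurons, and Tacc1, a coiled-coil protein of the centrosome, were both at 0.108, where Phactr1's own SD was 0.328. Bcl11b and Pde10a are also in the striatal marker list. Of the other regulators Ppp1r9a ranked 153, Ppp1r9b 873 and Phactr2 2705, while Phactr3 ranked 11296. The libraries share genotype, prefix and sex, so likeness includes the difference between genotypes.

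Taking out each genotype-by-sex group's own mean, Phactr1 and Ppp1r16b had r = 0.89 and rho = 0.76 over 11 libraries, with exact permutation p-values of 0.0602 and 0.044. The adjusted values over 36 relations were 0.403 and 0.383, so the relation failed the correction. Leaving out Het replicates 5 and 9, the farthest from the median, gave r = 0.47, so the relation rests on those libraries. Phactr1 and the mean of the striatal markers had r = 0.90 and rho = 0.85 (exact permutation p = 0.0301 and 0.0255, adjusted 0.403 and 0.383), and r = 0.72 without those 2. With the same mean, r was 0.82 for Ppp1r16b (0.49 without those 2) and 0.68 for Ppp1r1a. For the other regulators it ran from -0.34 for Phactr3 to 0.42 for Ppp1r9b. None of the 36 relations passed. Within a prefix too few libraries remained per group for a value.

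None of the 3 catalytic subunits that the regulators bind passed the test for Het against WT. Ppp1ca was at 318 ± 12 CPM in WT and 315 ± 19 in Het, a difference of -0.02 with a 95% interval of -0.13 to 0.10 (limma adjusted p = 0.894). Ppp1cb was at 232 ± 40.1 and 243 ± 13.2 CPM (0.09, interval -0.08 to 0.27, limma adjusted p = 0.522). Ppp1cc was at 21.3 ± 3.96 and 21.5 ± 3.04 CPM (0.03, interval -0.23 to 0.29, limma adjusted p = 0.915). Exons of Ppp1ca and Ppp1cb overlap those of other genes, and no source used here says whether counting used strand, which makes their counts uncertain.

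Of 35 other PP1 regulatory subunits listed, 32 were in the table and 28 were tested. Of these 2 rose, 1 fell and 25 did not pass, beside 2.3% higher and 1.14% lower among all genes tested. The median difference was 0.017 beside -0.016 for all genes. This list and those that follow were chosen with earlier results of these data known, so their calls are a description. The same shares of all genes stand beside their counts. The 2 that rose, Ppp1r12a and Ppp1r12b, encode myosin phosphatase targeting subunits, which direct PP1 to myosin light chain. Of the other genes of that kind in the list, Ppp1r12c differed by -0.09 (interval -0.33 to 0.15, limma adjusted p = 0.689). Ppp1r16a differed by 0.04 (interval -0.20 to 0.28, limma adjusted p = 0.865). Ppp1r12a rose by 0.27 (SE 0.067, limma adjusted p = 0.0348), from 53.5 ± 5.39 to 64.1 ± 3.02 CPM. Ppp1r12b rose by 0.55 (SE 0.13, limma adjusted p = 0.033), from 7.13 ± 1.16 to 10.7 ± 1.27 CPM, and its exons overlap another gene. Ppp1r35, a centrosomal protein, fell by 0.57 (SE 0.15, limma adjusted p = 0.0497), from 9.88 ± 2.21 to 6.62 ± 1.41 CPM.

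These calls changed with single libraries. Ppp1r12a passed only without WT replicate 3 or WT replicate 7 among the 11 fits that left out 1 library, Ppp1r35 only without WT replicate 3 or Het replicate 9, and Ppp1r12b was lost in 7 of 11. With prefix as a block none of the 3 passed, at differences of 0.27 for Ppp1r12a, 0.49 for Ppp1r12b and -0.57 for Ppp1r35. Phactr4, the remaining member of the Phactr family, was at 3.28 CPM in WT and 4.56 in Het, a difference of 0.50 (interval 0.06 to 0.93) that did not pass (limma adjusted p = 0.166). Ppp1r1b encodes DARPP-32, the dopamine-regulated PP1 inhibitor of striatal neurons and a marker in that list. It was at 169 ± 67 and 222 ± 66.3 CPM, a difference of 0.44 with an interval of -0.09 to 0.96 (limma adjusted p = 0.31). Ppp1r15a, which directs PP1 to the translation factor eIF2 alpha under stress, differed by 0.15 (interval -0.10 to 0.39, limma adjusted p = 0.474).

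**Figure D3:**
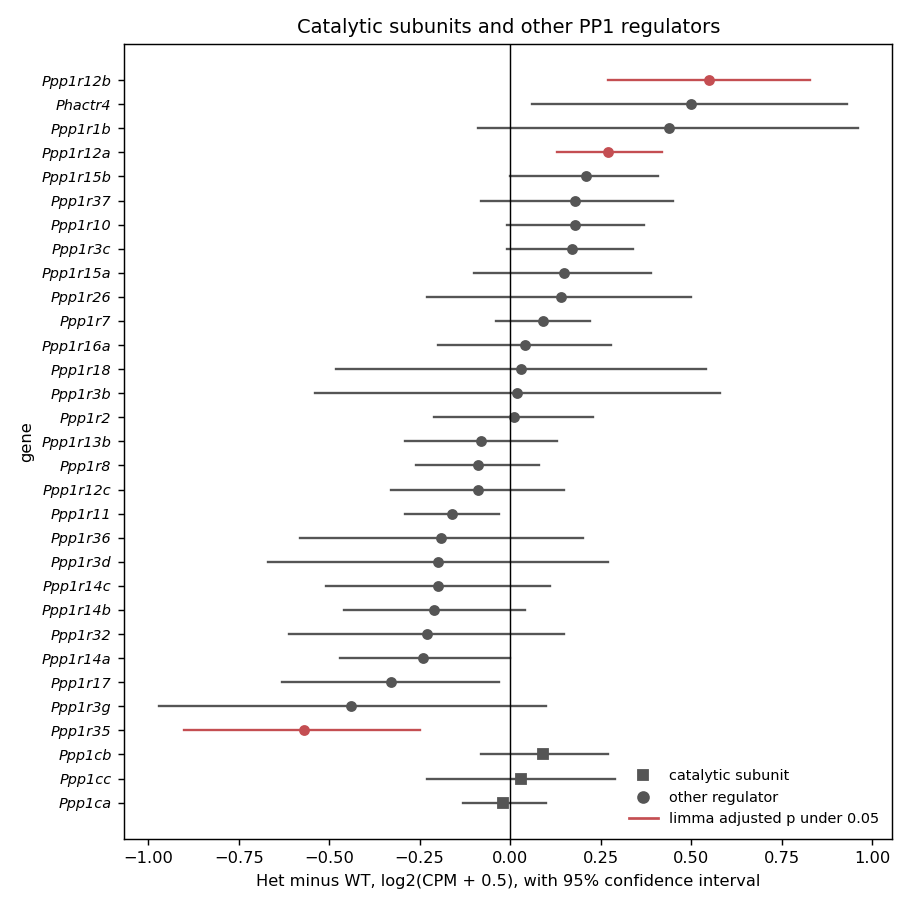
Difference between Het and WT, in log2(CPM + 0.5), of the 3 catalytic subunits (squares) and the 28 other regulators tested (circles), with 95% confidence intervals; red marks a limma adjusted p under 0.05. Ppp1r12b and Ppp1r12a lie above 0 and Ppp1r35 below it in red, and the intervals of the catalytic subunits include 0.

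The Phactr proteins share their actin-binding RPEL motif with the coactivators of serum response factor, and of 11 actin, RPEL and serum response factor genes tested 1 rose and 10 did not pass. Mrtfb, such a coactivator, rose by 0.50 (SE 0.084, limma adjusted p = 0.00658), from 37.7 ± 6.63 to 52.3 ± 2.36 CPM. Every Het library, at 49.9 to 56.2 CPM, was above every WT library, at 31.3 to 48.4 CPM. It passed in 11 of 11 fits that left out 1 library. Exons of Mrtfb overlap those of a predicted gene.

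Of 8 other serine/threonine phosphatase catalytic subunits 1 rose. Ppp3ca, the main catalytic subunit of calcineurin in neurons, rose by 0.33 (SE 0.066, limma adjusted p = 0.015), from 337 ± 48.3 to 415 ± 48.1 CPM. It did not pass without WT replicate 6, with no sex term, or without the libraries in doubt (limma adjusted p = 0.0553). Of the 3 other FERRY subunits that were listed, Tbck rose by 0.38 (SE 0.078, limma adjusted p = 0.0177), from 40 ± 2.93 to 51.7 ± 6.77 CPM. It did not pass without Het replicate 8, without Het replicate 9, with no sex term, or without the libraries in doubt (limma adjusted p = 0.0609). Cryzl1 differed by -0.13 and Gatd1 by -0.06, and neither passed (limma adjusted p = 0.206 and 0.621).

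The difference between females and males, adjusted for genotype, passed for 1 of the 8 regulators, beside 26 of 13184 genes (0.197%), of which 10 (0.0758%) were higher and 16 (0.121%) lower in females. That gene was Ppp1r16b, at a mean of 132 CPM in females and 163 CPM in males. In WT it was at 111 and 112 CPM in females and 131 to 134 CPM in males, and in Het at 141 to 151 CPM in females and 172 to 220 CPM in males. Females were below males in both genotypes with no overlap, by -0.24 in WT and -0.41 in Het. The adjusted difference was -0.34 (SE 0.0642, 95% interval -0.47 to -0.20, limma adjusted p = 0.0444). An exact two-sided permutation test of sex within genotype gave p = 0.005, the smallest that its 200 arrangements allow. The call is close to the threshold. It passed in 8 of 19 alternatives, with limma adjusted p from 0.0309 to 0.147, in 3 of 11 fits that left out 1 library, and not without the libraries in doubt (-0.29, limma adjusted p = 0.0708). Without those libraries every male was of prefix 14308 and no female was, so sex and prefix cannot be told apart there. With prefix as a block the difference was -0.44 (limma adjusted p = 0.126). That value rests on the libraries in doubt, the only males of prefix 14309. The same limits hold for the sex differences of the other regulators.

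**Figure D4:**
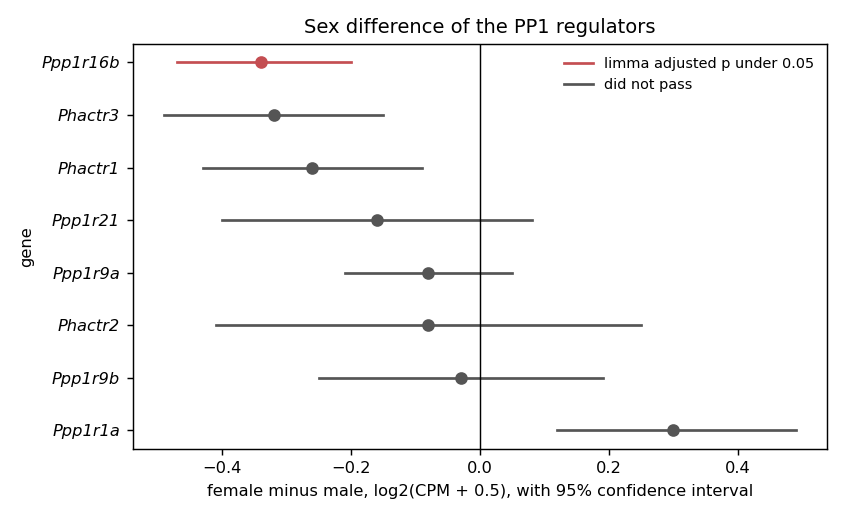
Difference between females and males, in log2(CPM + 0.5), of each regulator with its 95% interval, adjusted for genotype. Ppp1r16b, Phactr3 and Phactr1 lie below 0 and Ppp1r1a above it, and the intervals of the other 4 include 0.

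The 95% intervals of 4 of the 8 regulators excluded 0, beside 12.2% of all genes, Ppp1r16b and 3 that did not pass after adjustment. Phactr3 differed by -0.32 (interval -0.49 to -0.15, limma adjusted p = 0.15) and Phactr1 by -0.26 (interval -0.43 to -0.09, limma adjusted p = 0.223). Ppp1r1a lay on the other side, with 80.8 CPM in females and 66 CPM in males, a difference of 0.30 (interval 0.12 to 0.49, limma adjusted p = 0.176). Within each genotype, females lay below males with no overlap for Ppp1r16b and Phactr3, beside 1.84% of all genes, and above them for Ppp1r1a, beside 1.71%. Unadjusted exact permutation p-values were 0.01 for Phactr3, 0.035 for Phactr1 and 0.015 for Ppp1r1a.

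The unadjusted intervals of Ppp1r21 (-0.40 to 0.08), Ppp1r9a (-0.21 to 0.05), Phactr2 (-0.41 to 0.25) and Ppp1r9b (-0.25 to 0.19) included 0. Of the 16 striatal markers 15 were lower in females, none past the test, with a median of -0.17. Of the 12 hypothalamic markers 11 were higher in females and 3 passed, beside 0.0758% of all genes, with a median of 0.26. All 5 endothelial markers were higher in females, none past the test, with sums of 45.9 to 75.2 CPM in females and 44.2 to 58.1 in males. The part of these lists in the sex differences was not tested.

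The difference between genotypes did not depend on sex past the adjusted threshold for any of the 8 regulators, nor for any of the 13184 genes in limma (0 called, 0%, with 613, or 4.65%, at an unadjusted p under 0.05). Ppp1r21 came nearest. Its mean was 31.3 CPM in WT females and 39.6 in Het females, against 46 CPM in WT males and 35.5 in Het males. The groups did not overlap in either sex and lay in opposite directions. Of all genes 56 (0.425%) did so in the same directions and 44 (0.334%) in the reverse directions. The difference of differences was 0.70 (SE 0.15, 95% interval 0.38 to 1.02), and did not pass (limma adjusted p = 0.982). By its unadjusted limma p of 0.000334 it ranked 2 among the 13184 genes. With 2 WT females, each of these means rests on few libraries. The other 7 ranged from -0.30 for Ppp1r9b (interval -0.74 to 0.14) to 0.23 for Ppp1r1a (interval -0.14 to 0.59).

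**Figure D5:**
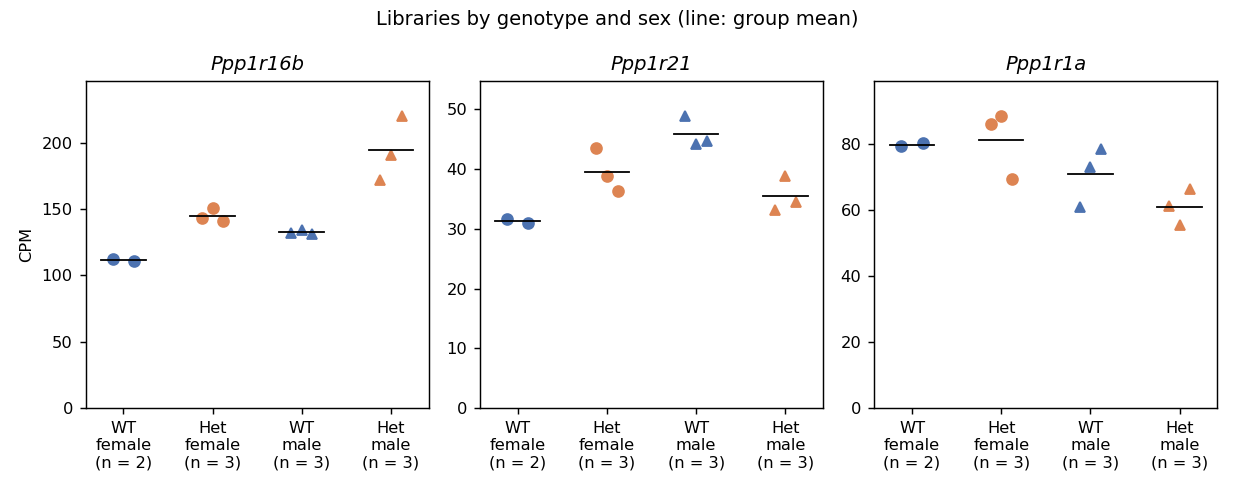
CPM of Ppp1r16b, Ppp1r21 and Ppp1r1a by genotype within each sex, with 1 point per library and a line at the group mean. Males lie above females for Ppp1r16b and below them for Ppp1r1a in each genotype, and Ppp1r21 is higher in Het among females and lower in Het among males.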

How the data were processed

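Reads were handled with Trimmomatic, Bowtie2, STAR and HTSeq on mm10, with no versions given, per the submitters' processing notes. The table's name says that RUVr, a method that estimates unwanted variation from a model's residuals and removes it, was applied. The deposited values are log2 CPM after that correction. A plan for linear CPM was therefore met by back-transforming: values above the floor of each column were whole multiples of 1 step in 100% of cases (tolerance 0.02). Genes with a mean of at least 1 CPM were kept (13184 of 14864; 1680 left out), and log2(CPM + 0.5) was fitted with limma 3.58.1 in R 4.3.3 over all 11 libraries with genotype and sex, plus their product for the interaction. Adjusted p-values are Benjamini-Hochberg over all genes tested, at 0.05. The correction left 1 direction among libraries with a singular value of 1.33 against 32.6 to 53.6 for the 9 others with weight (13176 genes), so p-values are too small. They measure the spread between these libraries, which the labels number as replicates without saying that each is 1 animal. Exact permutation tests used scipy 1.17.1. The fit was tested on simulated data.

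Levels per kilobase used exon lengths of GENCODE M21, which held 14856 of the 14864 genes. The 8 regulators, the gene lists and the marker lists were chosen with earlier results of these data known. Beside the 8 regulators and 3 catalytic subunits, the genes named are those past the threshold for Het against WT in the lists of other regulators, actin and serum response factor genes, other phosphatases and FERRY genes (the 6 with the smallest p if more), Phactr4, Ppp1r1b, Ppp1r15a, Ppp1r12a, and the 5 most like Phactr1. The marker lists are given by counts. Ppp1r12c, Ppp1r16a, Cryzl1, Gatd1, Wipf3, Nrgn, Penk and Tac1 were named after their values were seen. Alternatives were pseudocounts of 1 and 0.1, no filter, median centring, quantile normalization, no sex term, a prefix block, 1 residual degree of freedom taken off, a replicate block, and leaving out libraries. No table column was left unused.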

Additional observations from a re-analysis of the deposited data

Results flagged for a closer look

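Ppp1r21 stood out because its difference between genotypes had opposite signs in the sexes. It was 0.33 in females and -0.37 in males, the Het and WT libraries did not overlap in either sex, and the difference of differences was 0.70. The test of that difference did not pass (limma adjusted p = 0.982), with limma adjusted p from 0.667 to 1 over 18 alternatives and a value of 0.63 to 0.76.

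Ppp1cc in Het replicate 7, at 27.3 CPM, lay far above the other Het libraries. Its gap to the nearest of them was 0.628 of the range of the group, where the critical value for 6 libraries is 0.625. It was found among 22 groups examined for 11 genes, and chance marks about 1 in 20 such groups.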

How the results depend on the processing

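For Het against WT the number of genes called was 453. It fell to 200 with no sex term, 300 with prefix as a block, 189 with 1 residual degree of freedom taken off and 229 without WT replicate 11 and Het replicate 9, and ran from 140 to 820 when 1 library was left out. Of the 8 regulators 4 were called, and 3 to 4 when 1 library was left out, where Phactr3 was lost without WT replicate 6. For females against males the number of genes called was 26. It was 6 with prefix as a block, 11 with 1 degree of freedom taken off, 17 without the libraries in doubt and 10 to 62 when 1 library was left out. The number of regulators called was 1, was 0 under each of those 3 settings, and was 0 to 1 when 1 library was left out. The cause was not tested, and without the libraries in doubt sex and prefix cannot be told apart. No gene was called for genotype by sex in any setting.

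Replicate numbers 4 and 7 occur in both genotypes, and their libraries did not deviate together (correlations of 0.131 and -0.0919 over 13184 genes), so the numbers do not pair them. With a replicate block on those 4 libraries 35 genes and 2 regulators, Phactr1 and Phactr3, were called for Het against WT. The block fit had no sex term. WT replicate 7 was male and Het replicate 7 female, so its differences also include sex. In that fit the difference was -0.11 for Phactr2 and 0.25 for Ppp1r16b, and Ppp1r12a, Ppp1r12b, Ppp1r35, Mrtfb, Ppp3ca and Tbck did not pass.

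Differences near 0 changed sign. For Het against WT, Ppp1r21 went from -0.06 to 0.01 without the libraries in doubt and with the replicate block, and Ppp1r1a from -0.11 to 0.04 with the replicate block. For Ppp1r9b, female against male, it was 0.05 without the libraries in doubt and -0.10 to 0.02 when 1 library was left out, and for Phactr2 it was then -0.22 to 0.04. By genotype, Ppp1ca was 0.06 with quantile normalization, 0.00 with prefix as a block and -0.05 to 0.01 when 1 library was left out, and Ppp1cc was -0.07 with prefix as a block and -0.07 to 0.11 when 1 library was left out. The depth of the raw reads, taken before the correction, is unknown, so counting error could not be given.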
